A study of Homo sapiens with 12 samples.

Results

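The 10 noncoding genes SNHG1, SNHG5, SNHG6, SNHG7, SNHG8, SNHG12, SNHG15, SNHG16, GAS5 and ZFAS1 were followed across 4 siRNA treatments of a renal cancer cell line. They were taken by name from a table of read counts, and all 10 were found among its 60448 genes. GENCODE, in the release used here (29, on GRCh38), lists each of them as a noncoding transcript, and each had at least 6319 counts over the 12 libraries.

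The cells were 786-O, an established line derived from a human clear cell renal cell carcinoma (ccRCC), and every group received a small interfering RNA (siRNA) by transient transfection, a duplex that directs the breakdown of the mRNA it matches. The control siRNA (siNC), the siRNA against GABPA (siGABPA), the siRNA against GPD1L (siGPD1L) and the siRNA against BRD9 (siBRD9) had 3 libraries each. GABPA is the DNA-binding subunit of an ETS-family transcription factor, GPD1L is a glycerol-3-phosphate dehydrogenase-like protein, and BRD9 is a bromodomain subunit of a SWI/SNF chromatin remodelling complex. The sources used here do not name which GABPA siRNA was sequenced, nor the time between transfection and harvest for these libraries. All libraries came from 1 cell line, and where separate cultures are not stated for a group, its p-values measure only the spread between these libraries. Totals per library ran from 21419987 to 24469305 counts for siNC, from 26395629 to 27363062 for siGABPA, from 27440715 to 28650340 for siGPD1L and from 19499090 to 29999290 for siBRD9.

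Each targeted transcript was lowest in the libraries labelled for it. GABPA stood at 44.5, 51.2 and 42.9 CPM (counts for every 1000000 counts of the library, after TMM scaling in edgeR) in siNC and at 16.9, 14.3 and 15.3 CPM in siGABPA, a log2 fold change of -1.57 ± 0.0754 (SE). It was also lower in the other two treatments, at 25, 26 and 25.8 CPM in siGPD1L (-0.85) and 25.4, 26.1 and 30.5 CPM in siBRD9 (-0.75), with no overlap with siNC. GPD1L fell from 19.1, 19.4 and 20.3 CPM in siNC to 6.53, 5.92 and 7.49 CPM in siGPD1L. BRD9 fell from 98.8, 102 and 102 CPM to 23.2, 24.9 and 27.8 CPM in siBRD9. BRD9 was also below siNC in siGABPA, at 81, 79.1 and 72.1 CPM (-0.38, edgeR adjusted p = 3.66e-07), and in siGPD1L, at 76.1, 80.6 and 72.1 CPM (-0.40, adjusted p = 5.8e-08), and GPD1L was above siNC in siGABPA, at 23, 21.9 and 22.1 CPM (0.18, adjusted p = 0.0152). The targeted transcripts were therefore not at control levels in some groups aimed at another gene, and whether that moved the genes described here was not tested.

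Small nucleolar RNAs (snoRNAs) guide the chemical modification of ribosomal RNA. Box C/D snoRNAs direct ribose methylation and box H/ACA snoRNAs direct pseudouridylation, and most human snoRNAs are cut out of the introns of longer host transcripts. The noncoding hosts named snoRNA host genes (SNHG), with GAS5 and ZFAS1, are spliced RNAs whose exons carry no long reading frame. Several of them, GAS5 and ZFAS1 among them, begin with a terminal oligopyrimidine tract (TOP), the start that also marks mRNAs of the translation machinery, and their spliced RNA is known to be engaged by ribosomes and degraded by nonsense-mediated decay (NMD). GAS5 was first described as a transcript that accumulates in growth-arrested cells.

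RefSeq places 37 snoRNA genes inside the 10 hosts, 28 of them box C/D and 8 box H/ACA. GAS5 holds 11, SNHG1 holds 9, SNHG12 holds 4, ZFAS1 and SNHG16 hold 3 each, SNHG5 and SNHG7 hold 2 each, and SNHG6, SNHG8 and SNHG15 hold 1 each. SNHG7, SNHG8 and SNHG15 hold box H/ACA snoRNAs only. The 4 sequences that follow are examples of the cargo, read from GRCh38 and printed 5′ to 3′ with the C box (TGATGA) and D box (CTGA), or for SNORA24 the ACA box, in capitals. SNORD27 lies in SNHG1 (chr11:62855012-62855083, minus strand), SNORD50B in SNHG5 (chr6:85677589-85677658, minus strand), SNORD12B in ZFAS1 (chr20:49280319-49280409, plus strand) and SNORA24 in SNHG8 (chr4:118279190-118279320, plus strand).
SNORD27: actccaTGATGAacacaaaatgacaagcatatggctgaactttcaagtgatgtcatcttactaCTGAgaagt
SNORD50B: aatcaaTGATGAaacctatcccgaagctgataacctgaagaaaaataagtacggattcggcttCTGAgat
SNORD12B: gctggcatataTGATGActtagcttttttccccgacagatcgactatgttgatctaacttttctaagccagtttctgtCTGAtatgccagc
SNORA24: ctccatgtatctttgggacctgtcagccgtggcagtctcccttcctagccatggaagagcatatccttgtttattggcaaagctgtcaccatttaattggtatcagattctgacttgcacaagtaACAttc

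TOP RNAs are recognised by a run of pyrimidines at their first bases, so the starts of the host transcripts are shown here. RefSeq promoter windows on GRCh38.p14 were at hand for 8 of the 10 genes. The lines give 15 bases before and 30 bases from the annotated start, 5′ to 3′ on the strand of the gene, with the longest run of C or T near the start in capitals. They cover chr11:62855856-62855900 for SNHG1, chr6:85678704-85678748 for SNHG5, chr9:136728155-136728199 for SNHG7 and chr1:28581844-28581888 for SNHG12, all on the minus strand, and chr4:118278747-118278791 for SNHG8, chr17:76557749-76557793 for SNHG16 and chr20:49278627-49278671 for ZFAS1, all on the plus strand.
SNHG1: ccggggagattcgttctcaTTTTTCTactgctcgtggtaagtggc
SNHG5: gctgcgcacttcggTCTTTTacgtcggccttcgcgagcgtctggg
SNHG7: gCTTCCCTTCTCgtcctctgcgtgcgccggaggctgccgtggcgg
SNHG8: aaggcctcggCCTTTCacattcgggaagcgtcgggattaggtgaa
SNHG12: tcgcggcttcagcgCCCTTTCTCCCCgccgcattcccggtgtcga
SNHG16: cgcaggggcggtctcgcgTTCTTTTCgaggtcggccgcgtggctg
ZFAS1: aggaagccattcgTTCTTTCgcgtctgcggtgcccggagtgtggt

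These 7 genes had a run of at least 6 pyrimidines overlapping the 5 bases before to 10 bases after the start, against 26.3% of all 35116 RefSeq windows. The longest runs were those of SNHG12 (12 bases) and SNHG7 (11 bases), and that of SNHG7 lies wholly before the annotated start. The runs of SNHG1 and SNHG16 begin 4 and 3 bases after the first annotated base, so they do not include it. RefSeq starts were not always the outermost GENCODE start of the gene. They lay 1259 bases downstream of it in SNHG12, 464 in ZFAS1, 53 in SNHG8, 29 in SNHG1 and 15 in SNHG5, and the runs at the GENCODE starts of these genes were not read. The RefSeq start of GAS5 lies 163 bases upstream of the outermost GENCODE start at position 173868882 of chromosome 1, and its run there is 3 bases. The GENCODE transcripts of GAS5, on the minus strand, were read after its RefSeq run was seen to be short. Their most frequent opening bases were shared by 6 of 29 transcripts, and the genome position where those transcripts begin was not read. The first 30 bases follow, with a run of 6 pyrimidines in capitals.
GAS5: CTTTTCgaggtaggagtcgactcctgtgag

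The same windows, 250 bases before to 50 bases after the start, were searched on both strands for CCGGAAG, the core of the ETS site that GABPA binds. It occurred in 0 of the 8 windows and in 10.26% of all windows, which says only that these letters are not in these windows. A second motif, chosen after the sequences were seen, was ACANNTCCC, a part of the motif of the transcription factor ZNF143. It occurred in 5 of the 8 windows against 6.42% of all windows. In SNHG1, SNHG12, SNHG16 and ZFAS1 it lay on the strand of the gene, 118, 96, 80 and 115 bases before the RefSeq start, and in GAS5 on the opposite strand. The 4 matches on the strand of the gene are shown with their flanks and the match in capitals, at chr11:62855980-62856018, chr1:28581946-28581984, chr17:76557669-76557707 and chr20:49278512-49278550.
SNHG1: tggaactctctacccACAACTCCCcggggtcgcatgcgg
SNHG12: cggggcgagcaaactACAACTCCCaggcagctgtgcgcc
SNHG16: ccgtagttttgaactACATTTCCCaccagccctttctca
ZFAS1: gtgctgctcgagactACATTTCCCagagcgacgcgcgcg

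In control cells the 10 genes summed to 825.1, 791.2 and 810.8 CPM. The sum was nearly the same in siGABPA with TMM scaling, at 831.1, 795.0 and 797.3 CPM, and lay higher in siGPD1L, at 991.1, 990.4 and 963.5 CPM, and in siBRD9, at 888.3, 990.6 and 899.2 CPM. With total counts only, the siGABPA sum lay above siNC, at 886.1, 835.9 and 844.6 against 748.7, 726.2 and 737.7. The composition of the sum also differed between groups. GAS5 made up 17.7% of it in siNC, 25.8% in siGABPA, 29.1% in siGPD1L and 25.9% in siBRD9, whereas SNHG7 made up 14.4%, 9.1%, 7.4% and 8.3%.

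Levels can be set between genes only per length, and CPM per kilobase of annotated exon was used for that. In siNC, SNHG6 at 76.9 ± 2.82 (SD, n = 3) and SNHG5 at 76.2 ± 1.42 CPM per kilobase were highest and differed by less than their spread. SNHG8 followed at 51.9 ± 2.95, GAS5 at 39.5 ± 0.878, SNHG7 at 26.8 ± 0.193, SNHG1 at 16.6 ± 0.994 and SNHG16 at 11.6 ± 0.579. ZFAS1 at 7.19 ± 0.225 and SNHG15 at 7.14 ± 0.116 could not be ordered, and SNHG12 was lowest at 5.82 ± 0.228. The order was different in the treated cells. In siGPD1L, GAS5 stood second at 78.6 ± 0.924 after SNHG6 at 116 ± 2.93, close to SNHG5 at 75.3 ± 2.22 CPM per kilobase. In siBRD9, SNHG6 at 123 ± 7.51 was again highest, above SNHG5 at 80.2 ± 10.4 and GAS5 at 66.1 ± 2.29. The exon length counts the exons of every annotated transcript, retained introns included, so that a level per kilobase of a gene with many transcripts, such as GAS5, is a low estimate for its short forms.

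**Figure D1:**
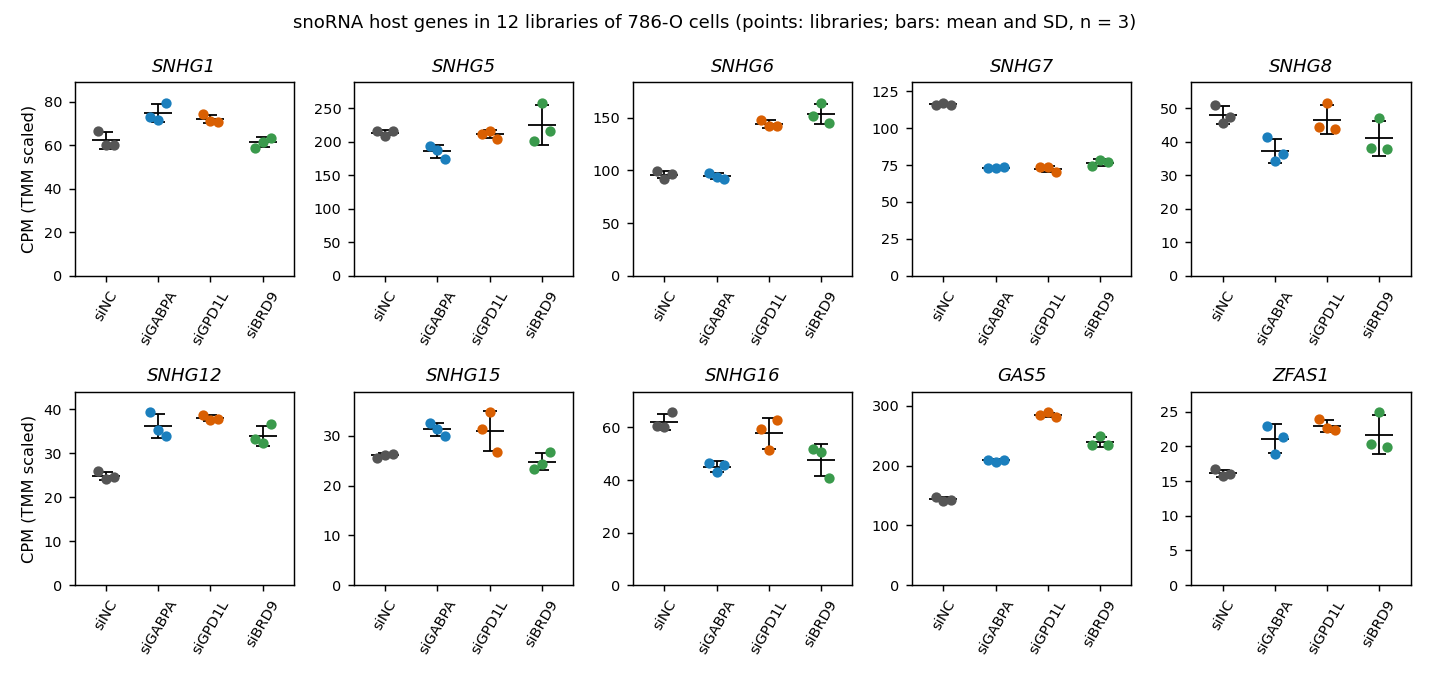
CPM (TMM scaled, linear axis from 0) of each of the 10 genes by group. Points are libraries, and bars give the mean and SD of 3 libraries. GAS5 rises from near 143 CPM in siNC to 285 CPM in siGPD1L with the 4 groups apart, SNHG7 sits near 116 CPM in siNC and between 70.2 and 78.7 CPM in all other libraries, and SNHG6 separates siGPD1L and siBRD9 from siNC and siGABPA.

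Each targeting group was compared with siNC, by the quasi-likelihood test of edgeR over all genes tested with Benjamini-Hochberg adjustment, and a gene was called higher or lower at an adjusted p (FDR) below 0.05 and a fold change above 1.5. These 3 comparisons share the siNC libraries, so their values stand side by side and are not independent of each other. All 10 genes passed the filter on low counts in every comparison. In siGABPA 0 of the 10 were called higher and 1, SNHG7, was called lower, where 21.3% of all genes tested were called higher and 15.2% lower. In siGPD1L 3 were called higher (GAS5, SNHG12 and SNHG6) and SNHG7 lower, against 20.4% and 15.5% of all genes. In siBRD9 2 were called higher (GAS5 and SNHG6) and SNHG7 lower, against 16.7% and 11.5% of all genes.

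Differences from siNC beyond the spread between libraries were common in the table. At an adjusted p below 0.05 without a fold threshold, 9 of 10 passed in siGABPA, 7 in siGPD1L and 7 in siBRD9, and the shares of all genes were 72.7%, 71.6% and 67.3%. The libraries of the 2 groups did not overlap for 9 of the 10 genes in siGABPA (75.0% of all genes), 7 in siGPD1L (73.8%) and 6 in siBRD9 (70.3%). The 0 genes called higher in siGABPA compare with 5 that were higher at an unadjusted p below 0.05, and DESeq2 and limma voom also called 0. Taken over the 10 genes, the median log2 change was 0.12 in siGABPA, 0.24 in siGPD1L and 0.04 in siBRD9, beside medians of 0.025, 0.014 and 0.0075 over all genes. The siBRD9 median of the 10 genes was -0.01 without siBRD9 replicate 2 and 0.09 without siBRD9 replicate 1, so its sign is not settled. With 3 libraries against 3, an exact permutation test of a single gene cannot give a two-sided p below 0.1, and every gene whose libraries did not overlap stood at that value.

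GAS5 had the largest log2 fold change of the 10 genes in siGPD1L and siBRD9 against siNC. In siGABPA that of SNHG7 was larger in size, and SNHG12 and GAS5 both stood at 0.54. GAS5 lies on chromosome 1, at 173863900-173868882 on the minus strand, and had 68459 counts in all, more than any of the others. GAS5 stood at 147, 141 and 143 CPM in siNC, 210, 206 and 210 CPM in siGABPA, 285, 289 and 282 CPM in siGPD1L and 235, 249 and 235 CPM in siBRD9. The 4 groups did not overlap anywhere in this order, siNC lowest and siGPD1L highest. Against siNC, the log2 fold change was 1.0 ± 0.0339 (SE) in siGPD1L (2.0-fold, edgeR adjusted p = 2.01e-16) and 0.75 ± 0.0371 in siBRD9 (1.68-fold, adjusted p = 8.39e-13). In siGABPA it was 0.54 ± 0.0314 (adjusted p = 3.66e-11), which at 1.45-fold fell short of the fold threshold. It passed that threshold with total counts only (0.76) and with the stricter count filter (0.59).

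Each step between neighbouring groups in this order held for GAS5 on its own. The level was 1.19-fold higher in siGPD1L than in siBRD9 (edgeR adjusted p = 1.7e-06), and siGABPA stood 0.20 below siBRD9 on the log2 scale (adjusted p = 2.16e-05) and 0.45 below siGPD1L (adjusted p = 3.73e-12). No other of the 10 genes had all its neighbouring groups apart at an adjusted p below 0.05.

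SNHG7, on chromosome 9 at 136721366-136728184 (minus strand), was the only one of the 10 genes called in all 3 comparisons with siNC. It hosts SNORA17A and SNORA17B, both box H/ACA snoRNAs. SNHG7 stood at 116, 117 and 116 CPM in siNC, 73.3, 73.2 and 73.4 CPM in siGABPA, 73.7, 73.5 and 70.2 CPM in siGPD1L and 74.1, 78.7 and 77.0 CPM in siBRD9. All 9 libraries with a targeting siRNA lay below all 3 siNC libraries. The log2 fold changes were -0.67 ± 0.0343, -0.68 ± 0.0388 and -0.60 ± 0.0394 (SE; edgeR adjusted p = 5.94e-12, 1.26e-12 and 7.15e-11). None of the differences between the targeting groups passed the test, with log2 differences of 0.02 ± 0.0381 between siGABPA and siGPD1L, -0.06 ± 0.0396 between siGABPA and siBRD9, and -0.08 ± 0.0421 between siGPD1L and siBRD9, although the siBRD9 libraries lay above all siGABPA and siGPD1L libraries.

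The SNHG7 call depends on the scaling. With total counts only, the log2 fold changes were -0.45, -0.51 and -0.47, still negative but under 1.5-fold. In siBRD9 the call was also lost without siBRD9 replicate 1 (-0.57) and with at least 10 counts required in every library (-0.58). The comparison rests on a siNC group that all 3 tests share, and whether siNC is high or the targeting groups are low for SNHG7 cannot be told apart.

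SNHG6 separated siGABPA from the other targeting groups. It lies on chromosome 8 at 66921684-66926398 (minus strand) and hosts SNORD87, a box C/D snoRNA. SNHG6 stood at 99.2, 92.2 and 96.2 CPM in siNC and at 98.0, 93.8 and 91.9 CPM in siGABPA, where the libraries overlapped. It stood at 148, 142 and 142 CPM in siGPD1L and 152, 164 and 145 CPM in siBRD9, all above every siNC and siGABPA library. Against siNC the log2 fold change was -0.02 ± 0.0397 in siGABPA (edgeR adjusted p = 0.663), 0.59 ± 0.0392 in siGPD1L (1.51-fold, adjusted p = 1.36e-11) and 0.69 ± 0.0453 in siBRD9 (1.62-fold, adjusted p = 5.8e-11).

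The difference between siGABPA and the other targeting groups was itself tested for SNHG6. The log2 fold change of siGABPA was -0.60 ± 0.0361 against siGPD1L (edgeR adjusted p = 3.02e-13) and -0.70 ± 0.0415 against siBRD9 (adjusted p = 4.02e-13), and both were called. Between siGPD1L and siBRD9 it was -0.09 ± 0.0408 (adjusted p = 0.0774). The siGPD1L values sit at the fold threshold. The call against siNC was lost without siNC replicate 2 (0.56) and without siGPD1L replicate 1 (0.58), and the call between siGABPA and siGPD1L was lost with total counts only (-0.57). The sign of the siGABPA difference from siNC is not settled, since it was 0.20 with total counts only.

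SNHG12 and ZFAS1 were higher than siNC in all 9 targeting libraries. SNHG12, on chromosome 1 at 28578538-28583132 (minus strand), hosts SNORD99 and 3 box H/ACA snoRNAs. It stood at 25.9, 24.1 and 24.5 CPM in siNC, 39.3, 35.3 and 34.0 CPM in siGABPA, 38.7, 37.5 and 37.8 CPM in siGPD1L and 33.2, 32.3 and 36.6 CPM in siBRD9. The log2 fold change against siNC was 0.62 ± 0.0555 in siGPD1L (edgeR adjusted p = 2.12e-09), which was called, and 0.54 ± 0.0641 in siGABPA and 0.47 ± 0.0645 in siBRD9, which were under 1.5-fold (adjusted p = 5.64e-07 and 2.68e-06). Neighbouring targeting groups did not pass the test of their difference for SNHG12 (adjusted p = 0.325 and 0.217). The siGABPA value passed the fold threshold without siGABPA replicate 3 (0.59), with the stricter count filter (0.60) and with total counts only (0.76), and the siBRD9 value passed it with total counts only (0.59).

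ZFAS1, on chromosome 20 at 49278178-49295738 (plus strand), hosts the SNORD12 family and had the fewest counts of the 10 genes, 6319 in all. It stood at 16.7, 15.7 and 16 CPM in siNC, 23.0, 18.9 and 21.4 CPM in siGABPA, 24.0, 22.6 and 22.3 CPM in siGPD1L and 20.3, 24.9 and 19.9 CPM in siBRD9. The 3 targeting groups overlapped each other, and their neighbours in the order of means gave an edgeR adjusted p of 0.377 and 0.797. The log2 fold changes against siNC were 0.39 ± 0.0788, 0.52 ± 0.0702 and 0.43 ± 0.0858 (edgeR adjusted p = 0.00027, 1.16e-06 and 0.000175), none of them past 1.5-fold. With total counts only they passed it in siGABPA (0.61) and siGPD1L (0.69).

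SNHG1 and SNHG15 shared an order of groups, with siGABPA and siGPD1L above siNC and siBRD9. SNHG1, on chromosome 11 at 62851988-62855914 (minus strand), hosts SNORD22 and SNORD25 to SNORD31 and stood at 66.6, 60.2 and 60.1 CPM in siNC, 73.3, 71.5 and 79.5 CPM in siGABPA, 74.3, 71.3 and 71.0 CPM in siGPD1L, and 58.9, 61.7 and 63.5 CPM in siBRD9. SNHG15, on chromosome 7 at 44983023-44986961 (minus strand), hosts SNORA9 and stood at 25.6, 26.2 and 26.4 CPM in siNC, 32.6, 31.3 and 30 CPM in siGABPA, 31.4, 34.7 and 26.7 CPM in siGPD1L, and 23.4, 24.3 and 26.8 CPM in siBRD9. The siNC and siBRD9 libraries overlapped for both genes, and siGABPA and siGPD1L did not pass the test of their difference (edgeR adjusted p = 0.288 for SNHG1 and 0.834 for SNHG15). For SNHG1 the log2 fold change against siNC was 0.26 ± 0.0493 in siGABPA and 0.22 ± 0.0462 in siGPD1L (edgeR adjusted p = 0.00012 and 0.000257). For SNHG15 it was 0.26 ± 0.0571 and 0.25 ± 0.077 (adjusted p = 0.000481 and 0.00584), the second of which was 0.17 and no longer passed without siGPD1L replicate 2. With total counts only, the siGABPA and siGPD1L values of both genes were larger. In siBRD9 the log2 fold changes were -0.01 and -0.06 (adjusted p = 0.849 and 0.435), and with total counts only both turned positive, at 0.11 and 0.07.

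With TMM scaling, SNHG16 and SNHG8 had their highest mean in siNC and their lowest in siGABPA. SNHG16, on chromosome 17 at 76557766-76565348 (plus strand), hosts SNORD1A, SNORD1B and SNORD1C. It stood at 60.7, 60 and 65.7 CPM in siNC, 46.6, 42.9 and 45.9 CPM in siGABPA, 59.4, 51.3 and 62.7 CPM in siGPD1L, and 51.7, 50.6 and 40.8 CPM in siBRD9. The siGABPA and siBRD9 libraries lay below siNC (log2 fold changes -0.46 ± 0.0492 and -0.37 ± 0.0684, edgeR adjusted p = 1.47e-07 and 9.36e-05), and the siGPD1L libraries overlapped with it (-0.10 ± 0.0598, adjusted p = 0.135, and 0.07 with total counts only). With total counts only, the siGABPA and siBRD9 libraries still lay below siNC, by smaller differences. The siBRD9 and siGABPA levels did not pass the test of their difference (adjusted p = 0.316).

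SNHG8, on chromosome 4 at 118278709-118279823 (plus strand), stood at 50.8, 45.5 and 47.4 CPM in siNC, 41.3, 34.1 and 36.2 CPM in siGABPA, 44.4, 51.5 and 43.7 CPM in siGPD1L, and 38.1, 47.0 and 37.9 CPM in siBRD9. With TMM scaling its siGABPA libraries lay below siNC and its other groups overlapped with siNC. With total counts only the siGABPA libraries overlapped with siNC as well, and the siGABPA and siBRD9 levels lay closer to siNC. The log2 fold change against siNC was -0.36 ± 0.0648 in siGABPA (edgeR adjusted p = 6.98e-05), -0.22 ± 0.0704 in siBRD9 (adjusted p = 0.00975) and -0.03 ± 0.0606 in siGPD1L (adjusted p = 0.625), where its sign turned with total counts only (0.14), without siNC replicate 1 (0) and without siGPD1L replicate 1 (0.01) or 3 (0.02). None of these values passed 1.5-fold, and the siBRD9 value lost its adjusted p below 0.05 without siNC replicate 1 (-0.18) or siBRD9 replicate 1 (-0.17) or 3 (-0.16).

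SNHG5, on chromosome 6 at 85660950-85678748 (minus strand), hosts SNORD50A and SNORD50B and had the second most counts of the 10 genes, 63191. It stood at 216, 209 and 216 CPM in siNC, 194, 188 and 175 CPM in siGABPA, 212, 217 and 205 CPM in siGPD1L, and 201, 258 and 216 CPM in siBRD9. The siGABPA libraries lay below all 9 others. The log2 fold change against siNC was -0.21 ± 0.0375 in siGABPA (edgeR adjusted p = 9.33e-05) and became 0.01 with total counts only. It was -0.01 ± 0.035 in siGPD1L and 0.08 ± 0.0594 in siBRD9 (adjusted p = 0.774 and 0.229). The spread in siBRD9 came from replicate 2, and without it that value was -0.02.

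Comparing the targeting groups with each other leaves siNC out. Of the 10 genes, 0 were called higher and 1, SNHG6, was called lower in siGABPA than in siGPD1L (8.54% and 6.90% of all genes), and the same count held between siGABPA and siBRD9 (8.52% and 5.74%). Between siGPD1L and siBRD9, 0 were called in either direction (4.01% and 2.91%), where 6 were higher and 1 lower at an unadjusted p below 0.05. In siGABPA 0 genes were higher than in siGPD1L and 2 were higher than in siBRD9 at an unadjusted p below 0.05. DESeq2 and limma voom gave the same counts of calls. At an adjusted p below 0.05, 5, 5 and 6 of the 10 genes passed in the 3 comparisons, beside 54.1%, 53.2% and 39.3% of all genes. The libraries did not overlap for 5, 6 and 4 genes, beside 59.4%, 58.5% and 47.8%.

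Relative to siGPD1L, siGABPA cells held less SNHG5, SNHG6, SNHG8, SNHG16 and GAS5, and 0 of the 10 genes were higher at an adjusted p below 0.05. SNHG16 differed by -0.35 ± 0.0572 on the log2 scale (edgeR adjusted p = 1.09e-05), SNHG8 by -0.32 ± 0.0649 (adjusted p = 0.000172) and SNHG5 by -0.18 ± 0.0371 (adjusted p = 0.000173). Relative to siBRD9, SNHG1 was higher in siGABPA by 0.29 ± 0.0457 (adjusted p = 7.08e-06) and SNHG15 by 0.34 ± 0.063 (adjusted p = 5.99e-05), while SNHG5 differed by -0.27 ± 0.0566 (adjusted p = 0.000261), a value of -0.17 without siBRD9 replicate 2. Relative to siBRD9, siGPD1L libraries held more SNHG1 (0.24), SNHG15 (0.32), SNHG16 (0.27), SNHG8 (0.19), SNHG12 (0.16) and GAS5 (0.25), each with an edgeR adjusted p below 0.05. The libraries overlapped for SNHG15, SNHG16 and SNHG8. SNHG16 stood at 0.17 without siBRD9 replicate 3. SNHG8 no longer passed without siGPD1L replicate 2 (0.11) or siBRD9 replicate 1 or 3 (0.14 each) and was 0.29 without siBRD9 replicate 2. SNHG12 no longer passed without siGPD1L replicate 1 (0.14) or 3 (0.16) or without siBRD9 replicate 1 (0.14) or 2 (0.13).

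**Figure D2:**
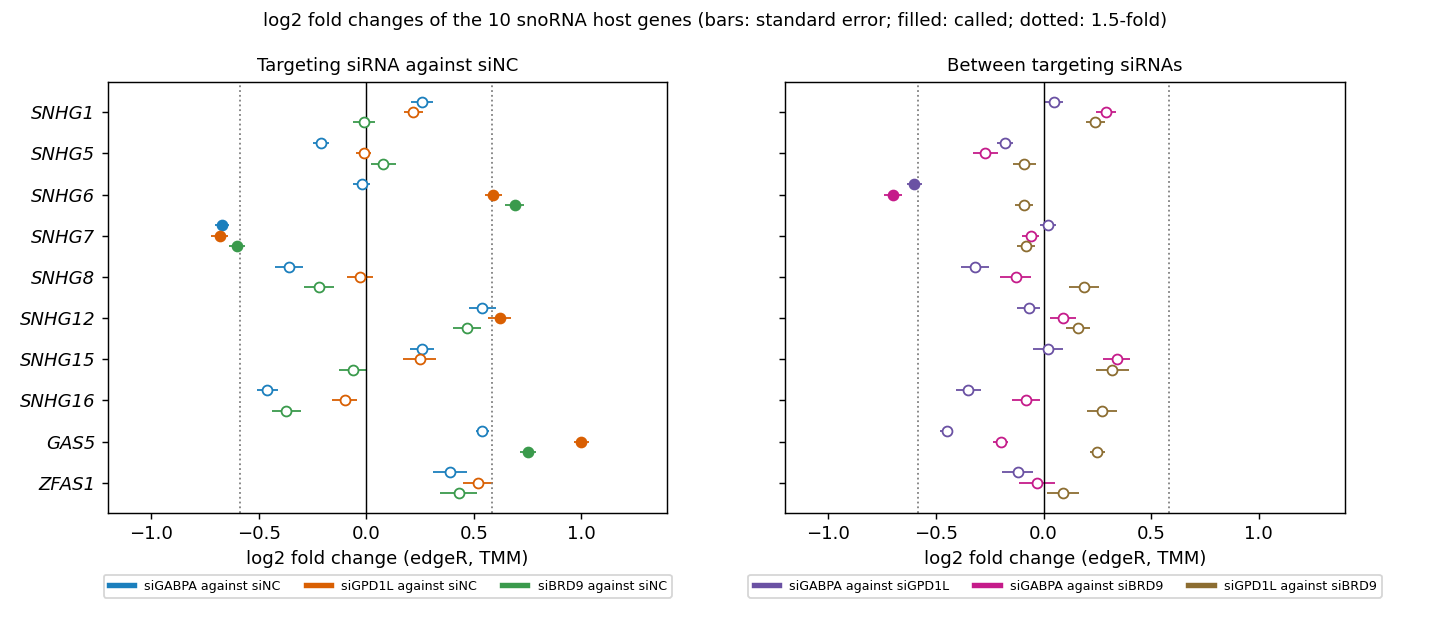
log2 fold change of each of the 10 genes in the 3 comparisons with siNC (left) and between targeting groups (right), from edgeR with TMM scaling. Bars are standard errors, filled points were called and dotted lines mark 1.5-fold. SNHG7 lies near -0.65 in all comparisons with siNC and near 0 on the right, SNHG6 lies at -0.60 and -0.70 in both comparisons of siGABPA on the right, and with total counts only SNHG5 and SNHG6 change sign in siGABPA against siNC.

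The 10 genes did not move as a unit. Over the 12 libraries, the 45 pairs of genes had Pearson correlations of log2 CPM between -0.95 and 0.89, with a median of 0.09, and 23 were positive and 22 negative. The libraries fall into 4 groups, so that these values describe mostly the order of group levels. GAS5 and SNHG12, and GAS5 and ZFAS1, stood at 0.89, and SNHG7 and SNHG12 at -0.95. Among 11451 other genes with a mean of at least 100 counts, the 6 whose log2 CPM was most like the mean pattern of the 10 genes were MICAL1 (r = 0.935), C2CD2L (0.929), STX16 (0.927), SIGIRR (0.922), ASB1 (0.918) and ASIC1 (0.916).

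Other noncoding snoRNA hosts were called in both directions in siGABPA and siGPD1L and only lower in siBRD9. Of 22 listed, 18 were in the table and 15 were tested against siNC. In siGABPA 3 were called higher (SNHG20, SNHG18 and EPB41L4A-AS1) and 4 lower. In siGPD1L 1 was called higher (EPB41L4A-AS1) and 5 lower, and siBRD9 had 0 called higher and 4 lower. The lower calls of each comparison include SNHG9, which had a mean of only 12.5, 11 and 11.17 counts in the libraries compared. Of all genes, 21.3%, 20.4% and 16.7% were called higher and 15.2%, 15.5% and 11.5% lower. SNHG14, the host of the imprinted SNORD115 and SNORD116 clusters, fell by 1.17, 1.13 and 1.06 on the log2 scale in the 3 comparisons. DANCR, a noncoding host that is also known as a regulator of differentiation, fell by 0.73, 1.37 and 1.24, and SNHG29 fell by 0.79, 0.63 and 0.62.

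Among hosts that encode proteins, most calls were lower. Of 22 tested, 12 were called lower and 0 higher in siGABPA, 10 lower and 1 higher in siGPD1L, and 6 lower and 1 higher in siBRD9, beside the 15.2%, 15.5% and 11.5% of all genes called lower and the 21.3%, 20.4% and 16.7% called higher. The median log2 fold changes were -0.62, -0.52 and -0.35. EEF1B2, an exchange factor subunit of translation elongation, went from 365 ± 10.5 CPM (SD, n = 3) in siNC to 89.0 ± 3.6 in siGABPA, 135 ± 8.46 in siGPD1L and 158 ± 14.7 in siBRD9. CCT6A, a chaperonin subunit, fell by 1.35, 0.96 and 0.94 on the log2 scale, and NCL, the nucleolar protein nucleolin, fell by 1.18, 0.85 and 0.86. The 1 host called higher, in siGPD1L (1.08) and siBRD9 (0.84), was EIF4A2, a translation initiation helicase.

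Calls among the proteins that bind snoRNAs were all lower. These calls, like those of the other lists, are given only with TMM scaling. With total counts only, the all-gene median log2 fold change against siNC rose to 0.24, 0.18 and 0.13, and fewer genes were called lower. List genes near 1.5-fold may therefore lose their call under it, as SNHG7 did. Of the 8 core proteins of box C/D and box H/ACA particles, 6 were called lower in siGABPA, 3 in siGPD1L and 3 in siBRD9, beside 15.2%, 15.5% and 11.5% of all genes called lower. Their median log2 fold changes were -0.81, -0.53 and -0.52. NOP56 and DKC1 are also in the list of protein-coding hosts, so they are counted in both. NOP58 and NOP56, the paired scaffold proteins of box C/D particles, were called in all 3 comparisons, NOP58 at -1.19, -0.95 and -0.82 and NOP56 at -0.83, -0.74 and -0.69. FBL, the methyltransferase fibrillarin, stood at -0.79, -0.57 and -0.57, the first called and the others just under 1.5-fold (edgeR adjusted p = 1.23e-11, 4.63e-11 and 1.21e-09). Of the H/ACA proteins, NHP2 was called in all 3 (-0.91, -0.74 and -0.71), NOP10 (-0.83, -0.28 and -0.39) and GAR1 (-0.71, -0.49 and -0.47) passed 1.5-fold in siGABPA and had an adjusted p of at most 6.02e-06 in each comparison, and the pseudouridine synthase DKC1 in none (-0.43, -0.09 and -0.23). SNU13, which binds box C/D snoRNAs first, stood at -0.21, 0.19 and 0.01. Of 13 factors that assemble the particles, 5 were called lower in siGABPA, 1 in siGPD1L and 0 in siBRD9, beside the same 15.2%, 15.5% and 11.5% of all genes. In siBRD9 9 of the 13 passed an adjusted p below 0.05, beside 67.3% of all genes, and the helicase RUVBL1 fell by 1.03 in siGABPA.

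The translation-linked lists gave the following counts. Like the other lists here, they were chosen with earlier results of these data known, so their counts beside all genes are descriptive only. Of 17 tested TOP mRNAs other than those of ribosomal proteins, 15 were called lower in siGABPA, 8 in siGPD1L and 5 in siBRD9, beside 15.2%, 15.5% and 11.5% of all genes. In none of the comparisons with siNC was one called higher, where 21.3%, 20.4% and 16.7% of all genes were, and the median log2 fold changes were -0.82, -0.58 and -0.48. EEF1A1, the main elongation factor, went from 5910 ± 128 CPM in siNC to 2440 ± 62.2 in siGABPA, 2940 ± 123 in siGPD1L and 3480 ± 64.4 in siBRD9. The median of the 10 noncoding hosts stood above that of these mRNAs in every comparison with siNC, and the lists share EEF1B2, EEF2 and RACK1 with the protein-coding hosts. Of 13 regulators of TOP mRNAs, 0 were called in siGABPA and siBRD9, where 9 and 10 passed an adjusted p below 0.05 beside 72.7% and 67.3% of all genes, and MTOR, the kinase that controls TOP translation, was called lower in siGPD1L (-0.76) with values of -0.41 in siGABPA and -0.47 in siBRD9. LARP1, which binds TOP RNAs, stood at -0.35, -0.25 and -0.16.

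NMD factors, which act on spliced RNAs of this kind, were called in both directions in siGPD1L and siBRD9. Of 23 tested, 0 were called higher and 6 lower in siGABPA, 2 higher and 2 lower with siGPD1L, 1 higher and 2 lower with siBRD9. Of all genes, 21.3%, 20.4% and 16.7% were called higher and 15.2%, 15.5% and 11.5% lower. The list had median log2 fold changes of -0.24, -0.13 and -0.22. XRN1, the exonuclease that degrades decapped RNA, rose by 0.76 in siGPD1L and 0.62 in siBRD9. RBM8A, a subunit of the exon junction complex, fell by 0.89, 0.91 and 0.70. Whether these factors acted on the 10 genes was not tested.

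**Figure D3:**
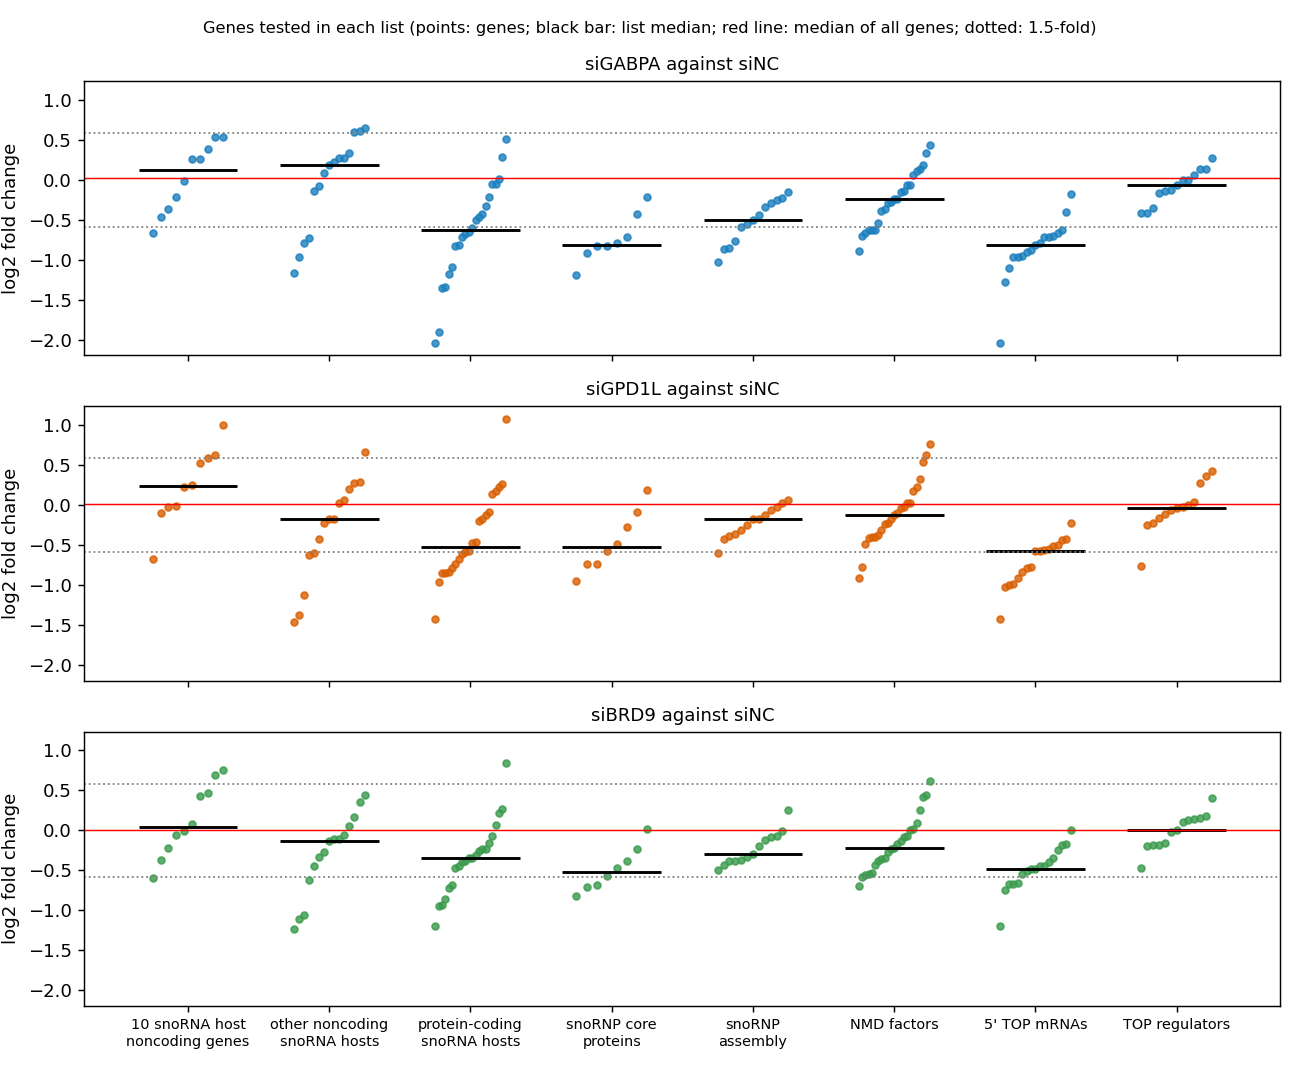
log2 fold change against siNC of every tested gene of 8 lists, in siGABPA (top), siGPD1L (middle) and siBRD9 (bottom). Points are genes, black bars list medians, red lines the median of all genes and dotted lines 1.5-fold. The lists were chosen with earlier results of these data known. The 10 noncoding hosts spread around the median of all genes, with a list median of 0.12, 0.24 and 0.04, whereas the TOP mRNAs have medians of -0.82, -0.58 and -0.48.

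The snoRNAs themselves were hardly measured. GENCODE places 26 snoRNA rows inside 9 of the hosts and none inside GAS5, whose RefSeq snoRNAs were not looked for in the table. All 26 are in the table, and 22 had 0 counts in all 12 libraries. The 21 rows that lie inside an annotated exon of the host, which for these genes means a transcript with a retained intron, had no count, whereas 4 of the 5 rows outside such exons had counts (SNORD99, SNORD1B, SNORD12C and SNORD12B). SNORD99 had 18, 13 and 10 counts in siNC, 7, 10 and 15 counts in siGABPA, 20, 19 and 9 counts in siGPD1L and 14, 22 and 13 counts in siBRD9. SNORD12B had 11, 12 and 12 counts in siNC, 9, 13 and 14 counts in siGABPA, 25, 12 and 14 counts in siGPD1L and 20, 6 and 15 counts in siBRD9. The groups overlapped for both. SNORD12C, also in ZFAS1, had 7, 15 and 9 counts in siNC, 2, 5 and 3 counts in siGABPA, 5, 1 and 4 counts in siGPD1L and 1, 7 and 6 counts in siBRD9. Its siGABPA and siGPD1L libraries lay below siNC, where ZFAS1 itself was above siNC, and these few counts were not tested. SNORD1B had 0 to 2 counts in each library. Whether the rows at 0 reflect the RNA or the way reads shared with a host exon were counted was not tested.

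Genes on the opposite strand share exon bases with some hosts, and the strand setting of the counting is not given in the sources used here. The shared part is 29.3% of the exon bases for SNHG6 (with MCMDC2), 25.2% for SNHG7 (FAM69B), 30.6% for SNHG16 (AC015802.6), 11.1% for ZFAS1 (ZNFX1), 1.2% for GAS5 (GAS5-AS1) and 0.2% for SNHG12 (TRNAU1AP). MCMDC2 and FAM69B had 288 and 249 counts over the 12 libraries against 37434 for SNHG6 and 25171 for SNHG7. No count was found here for AC015802.6, so its overlap with SNHG16 could not be judged. ZNFX1 had 72315 counts, more than the 6319 of ZFAS1, so the ZFAS1 values are uncertain where reads of both genes meet.

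The libraries held the renal epithelial profile of the line. All 10 renal markers were detected in every library, with KRT8 at 1040 ± 7.21 CPM (SD, n = 3) in siNC, and the sum of the markers lay between 2871 and 2935 CPM in siNC. It was lower in the other groups, between 1846 and 1861 CPM for siGABPA, 2136 and 2198 CPM for siGPD1L, and 2205 and 2252 CPM for siBRD9. KRT8 and VIM (1000 ± 33.8 CPM in siNC) make up most of this sum, and EPAS1 went the other way, called higher in all 3 comparisons with siNC (1.08, 1.3 and 1.65 on the log2 scale). Markers of other cell types summed to at most 1.131 CPM in any library. CD3E was at 0 in all 12 libraries, PTPRC and CDH5 had 3 and 1 counts in all, and MLANA had the most counts, 136 in all. In such bulk libraries, fewer cells of a kind and less RNA per cell cannot be told apart. The 100 most abundant genes held 18.4% to 18.5% of all siNC counts and 14.9% to 16.3% of those in targeting libraries, and their part in the differences from siNC was not tested.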

How the data were processed

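Total RNA of the 12 libraries was extracted with Trizol and made into libraries with an Illumina RNA kit, and the paper describes the GABPA knockdown as 3 independent experiments. The deposited values are counts of reads per gene, which the authors left unnormalized. The paper names featureCounts as the counter, whereas the submitters' processing notes list HISAT2, HTSeq and DESeq2 with build hg38, and the strand setting is not given in the sources used here. The medium is also given differently, as DMEM in the labels and RPMI-1640 in the methods.

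Each comparison was fitted on its own 6 libraries in R 4.3.3 with edgeR 4.0.16 (TMM scaling, filterByExpr, quasi-likelihood test, Benjamini-Hochberg adjustment), and a call needed both a fold change over 1.5 and an FDR under 0.05. Alternatives were RLE scaling, total counts only, DESeq2 1.42.0, limma voom (limma 3.58.1), 2 other count filters, all 12 libraries in one fit, a replicate block and each library left out in turn. Permutation tests were made on log2(CPM + 2). The fits were tried on simulated siGABPA and siNC libraries with 200 changed genes. EdgeR, limma voom and DESeq2 each called the 100 genes changed 2-fold and the 100 changed 4-fold. Wrong calls numbered 9 for edgeR, 9 for limma voom and 0 for DESeq2. The simulation gave every gene the same spread and changed fewer genes than were called against siNC. It therefore cannot speak for shifts as wide as those seen here. Exon lengths and positions came from GENCODE release 29, in which 56868 of the 60448 identifiers were found, and promoter windows from RefSeq.

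The 10 genes and the gene lists were chosen with earlier results of these data known. Named are all 10 genes, the siRNA targets, core snoRNP proteins and TOP regulators, up to 4 called genes per direction of each other list with the largest fold change and a mean of at least 100 counts, and the 6 genes most like the mean pattern. SNHG9 is named in addition, for its few counts. The 10 genes had 6319 to 68459 counts over the 12 libraries, and snoRNA rows, which had few, were not tested. Each library had between 19499090 and 29999290 counts. Values of a few further genes under these rules are not reported here.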

Additional observations from a re-analysis of the deposited data

How the results depend on the processing

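Of 840 values recomputed for the 10 genes and the 6 comparisons, 797 kept their direction and their side of the threshold, 27 changed sign, 8 gained a call and 8 lost one. RLE scaling, DESeq2, limma voom, all 12 libraries in one fit and the replicate block moved no count of calls by over 1.5 times and reversed no gene. Total counts only raised the median log2 fold change of all genes from 0.025 to 0.24 in siGABPA, from 0.014 to 0.18 in siGPD1L and from 0.0075 to 0.13 in siBRD9 against siNC, and the share of higher genes among all calls from 58.4% to 77.8%, from 56.8% to 72.7% and from 59.3% to 73.1%. Under it, lower calls numbered 1387 in siGABPA and 1572 in siGPD1L in place of 2453 and 2465, 3 of the 10 genes were called higher in siGABPA in place of 0, and 0 were called lower in the 3 comparisons with siNC and in siGABPA against siGPD1L in place of 1. Measured from the all-gene median, the median of the 10 genes was 0.10, 0.22 and 0.03, and with no filter beyond 1 count -0.01, 0.16 and 0. With at least 10 counts in every library, 2 of the 10 were called higher in siGABPA and 0 lower in siBRD9. Leaving out 1 library gave 0 to 1 called higher in siGABPA (SNHG12 without siGABPA replicate 3), 2 to 3 called higher in siGPD1L (2 without siNC replicate 2 or siGPD1L replicate 1) and 0 to 1 called lower in siBRD9 (0 without siBRD9 replicate 1).

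Sign changes concerned log2 fold changes between -0.21 (SNHG5 in siGABPA against siNC) and 0.08 (SNHG5 in siBRD9 against siNC). Against siNC, total counts only gave 0.01 for SNHG5 and 0.20 for SNHG6 in siGABPA, 0.16 for SNHG5, 0.14 for SNHG8 and 0.07 for SNHG16 in siGPD1L, and 0.11 for SNHG1 and 0.07 for SNHG15 in siBRD9. Between targeting groups it gave 0.02 for SNHG7 and 0.05 for ZFAS1 in siGABPA against siBRD9. With at least 10 counts in every library, SNHG6 stood at 0.03 in siGABPA, SNHG5 at 0.02 in siGPD1L and SNHG1 at 0.01 in siBRD9, and without a filter SNHG5 stood at 0 in siGPD1L. Leaving out 1 library reversed, against siNC, SNHG6 in siGABPA (-0.06 to 0.01), SNHG8 (-0.10 to 0.02) and SNHG5 (-0.03 to 0.02) in siGPD1L, and SNHG1 (-0.04 to 0.03) and SNHG5 (-0.02 to 0.16) in siBRD9, and between targeting groups SNHG15 (-0.08 to 0.10) and SNHG7 (0 to 0.02) in siGABPA against siGPD1L, ZFAS1 (-0.10 to 0.07) in siGABPA against siBRD9 and SNHG5 (-0.16 to 0.02) in siGPD1L against siBRD9. The causes were not tested.

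Replicate numbers did not pair the libraries: over 18 same-numbered pairs the correlation of deviations from the group means ran from -0.12 to 0.114 with a median of -0.0436, and 5 of 12 libraries correlated best with their own number. With the number as a replicate block, 3419 genes were called higher and 2441 lower in siGABPA against siNC, in place of 3437 and 2453, 3200 and 2444 in siGPD1L, and 2540 and 1766 in siBRD9.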
